A study of Mus musculus with 12 samples.

Results

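The 5′ external transcribed spacer (5′ETS) of the mouse ribosomal RNA (rRNA) precursor was examined downstream of its primary cleavage site. The segment was chosen by position alone: it runs from position 651 to position 4005 of the deposited reference, up to the first nucleotide of 18S rRNA. It is 1 of the 8 regions into which the precursor was divided, covers 3355 of its 13400 positions and holds 33 whole bins of 100 nt out of 134. Libraries were prepared with the Clonetech pico kit, leaving out ZapR, its step that removes rRNA. It came from Hepa1c1c7, a line of mouse hepatoma cells, and from the liver of FVB/N mice. The cells were given siRNA at 10 uM and taken after 3 days; an siRNA that the labels call luciferase or scrambled luciferase served as the control for siRNA against Eif3m. The mice, 6 to 8 weeks old, were given either siRNA by tail vein at 0.5 mg/kg, packed in LNP (lipid nanoparticles), and their livers were taken after 13 days. Each of the 4 groups has 3 libraries, and the labels do not say whether the replicates of a group are separate cultures or separate mice, so p-values measure the spread between these libraries only. Cell RNA came from a nuclear purification kit and liver RNA from ground whole tissue, so the systems differ in source, fraction, dose and time at once. The table holds no messenger RNA, so the level of Eif3m, which encodes the m subunit of translation initiation factor eIF3, was not analysed here.

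RNA polymerase I transcribes 18S, 5.8S and 28S rRNA as a single precursor, framed and separated by spacers that are cut out and degraded. In the mouse 5′ETS an early endonucleolytic cut removes the leader, and the stretch after it stays joined to 18S until later cuts, guided by the U3 small nucleolar RNA and the small-subunit processome, free the 5′ end of 18S. The cut-off spacer RNA is then broken down by nuclear exonucleases. Depth over the segment therefore counts both precursors that still carry it and spacer pieces not yet degraded.

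Depth stepped up at both ends of the segment. The start of 18S was itself placed from such steps in these libraries, so the step there is no independent check of the 3′ end. Averaged over all 12 libraries, log2(depth + 1) rose by 2.02 at position 651, comparing the 20 nt on either side, and by 3.55 at position 4006, the first position assigned to 18S. In control cells the 20 nt before the segment held 130 reads per position on average and its first 20 nt held 657. In control livers the same windows held 15.1 and 47.1 reads. The last 2 positions of the segment, 4004 and 4005, held 1176 reads on average in control livers against 71.8 in the 20 nt before them, so in liver the rise into 18S begins inside the stated end. These 2 positions supplied 0.61% to 1.26% of the segment's depth in liver libraries and 0.072% to 0.0914% in cell libraries. Mean depth over the whole reference ran from 10462 to 46799 reads per position across libraries. Over the segment it ran from 628 to 3683 reads in cells and from 57.9 to 190 in liver, and 2 to 5 of its positions were under 10 reads in each liver library. No position of the segment was at 0 in any library.

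In cells, the segment took up 2.82 times as large a share of all rRNA depth after Eif3m siRNA as after control siRNA. Its share of summed depth was 1.50%, 2.17% and 1.88% in control cell replicates 1, 2 and 3, and 5.93%, 4.33% and 5.37% in Eif3m siRNA replicates 1, 2 and 3. The highest control library stood below the lowest Eif3m siRNA library, which was 1.99 times as high. Within the groups the highest library exceeded the lowest 1.44-fold in controls and 1.37-fold after knockdown. Group means were 1.85% ± 0.33 and 5.21% ± 0.82 (SD, n = 3 each), and the difference of mean log2 shares was 1.50 ± 0.20 (SE; exact two-sided permutation p = 0.1, the smallest that 3 against 3 libraries allow). limma on the 9 segment values gave it an adjusted p of 0.00077. That fit pools the spread of the 9 values, which all use the segment's depth, and its SE for the share was 0.17. limma p-values of segment values, here and below, hold only under that pooling. They rest on limma's SE, while the SE printed with a segment value is unpooled unless it is called limma's.

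In liver the segment was a far smaller part of rRNA, and its share was 1.86 times as large after Eif3m siRNA. Control liver replicates 1, 2 and 3 had 0.0485%, 0.0538% and 0.0403% of summed depth in the segment, and Eif3m siRNA replicates 1, 2 and 3 had 0.102%, 0.0867% and 0.0765%. These groups did not overlap either: the lowest Eif3m siRNA liver was 1.42 times the highest control liver, close to the 1.33-fold range within each group. Means were 0.0475% ± 0.0068 and 0.0884% ± 0.0128 (SD, n = 3 each), and mean log2 shares differed by 0.89 ± 0.17 (SE; exact permutation p = 0.1, again the smallest possible; limma adjusted p = 0.0012). In whole tissue, fewer cells of a type and less RNA per cell cannot be told apart. Between controls, the mean share was 38.9 times as large in cells as in liver, a comparison in which nuclear and whole-tissue RNA cannot be told apart from the source.

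**Figure D1:**
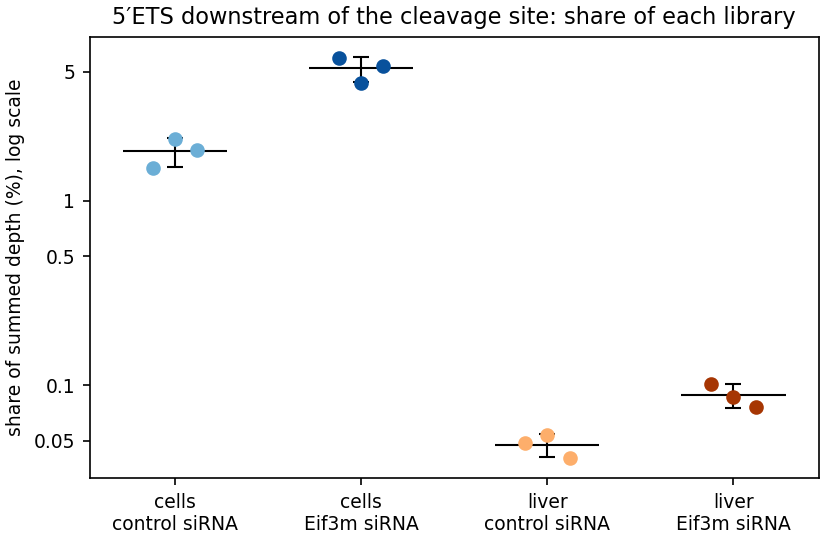
Share of summed depth that fell in the 5′ETS downstream of the cleavage site, in percent on a log axis, for the 12 libraries in 4 groups; points are libraries, horizontal lines are group means and bars are SD (n = 3). Eif3m siRNA libraries lie above all control libraries in cells (4.33% to 5.93% against 1.50% to 2.17%) and in liver (0.0765% to 0.102% against 0.0403% to 0.0538%).

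Relative to mature 18S, which is released from the segment's 3′ end, mean depth of the segment was 2.61% ± 0.44 in control cells and 7.79% ± 1.33 in Eif3m siRNA cells (SD, n = 3 each). In liver it was 0.0723% ± 0.0111 and 0.119% ± 0.018 of 18S depth (SD, n = 3 each). Against 28S the values were 4.60% ± 0.92 and 13.7% ± 2.4 in cells and 0.106% ± 0.014 and 0.214% ± 0.031 in liver (SD, n = 3 each). The log2 difference in liver depended on the mature rRNA used, at 0.72 over 18S and 1.01 over 28S, while in cells it was 1.58 over 18S and 1.59 over 28S.

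Depth was uneven along the segment, and its hills and valleys lay at the same places in all groups. Scaled to a library's summed depth (ppm: a position's depth for each 1000000 of summed depth), the deepest bin of the segment in cells was 3901-4000, next to 18S, with 14.1 ± 2.8 ppm in control cells and 39.99 ± 5.75 ppm in Eif3m siRNA cells (SD, n = 3 each). Its libraries read 11.9, 17.2 and 13.1 ppm in control cell replicates 1 to 3 and 44.0, 33.4 and 42.6 ppm in the Eif3m siRNA replicates. In liver the deepest bin was 1101-1200, with 0.289 ± 0.054 ppm under control siRNA and 0.551 ± 0.075 ppm under Eif3m siRNA (SD, n = 3 each). The same bin 1101-1200 was the second hill in cells, at 10.8 ± 1.9 and 30.1 ± 5.2 ppm, and bin 901-1000 came after it, at 10.0 ± 2.2 and 27.4 ± 3.8 ppm (SD, n = 3 each).

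The shallowest bin was 2601-2700 in every group. It held 1.31, 1.78 and 1.52 ppm in control cell replicates 1 to 3 and 5.02, 3.49 and 4.62 ppm in Eif3m siRNA cells. In liver it held 0.0307, 0.0468 and 0.0313 ppm in controls and 0.0562, 0.0579 and 0.0510 ppm after knockdown, which rests on 14.6 to 18.7 reads per position in controls and 29.1 to 35.2 after knockdown. The deepest bin exceeded it 9.16-fold in control cells, 9.13-fold in Eif3m siRNA cells, 7.95-fold in control livers and 10.0-fold in Eif3m siRNA livers. Bins 1701-1800 and 1401-1500 followed by mean ppm over groups, a rank that the deeper cell libraries set. Bins 1401-1500 and 1701-1800 had 0.502 and 0.407 of the segment's mean in control cells and 0.595 and 0.468 of it in control livers. Bins 2801-2900 and 3201-3300 were shallower than bin 1401-1500 in control livers, at 0.550 and 0.470 of the mean. The bins between 1401-1500 and 1701-1800 were also below the segment's mean in both control groups, so that the stretch forms a broader valley.

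Sharp steps marked this relief. The 3 largest rises inside the segment lay at positions 3678, 876 and 2714, with 1.66, 1.23 and 0.91 on the log2 scale, and the 3 largest falls at 2590, 2369 and 3753, with -1.20, -1.16 and -1.02. The rise at 3678 was present in each of the 12 libraries, from 1.42 to 1.90, and so was the fall at 2590, from -1.40 to -0.87. Its mean height at 3678 was 1.79 ± 0.10 in control cells and 1.82 ± 0.05 in Eif3m siRNA cells, and 1.46 ± 0.04 and 1.59 ± 0.08 in the livers (SD, n = 3 each). Bases, mappability and library preparation are shared by all libraries, and their part in this relief was not tested. As a description over the 33 bins, log2 depth of control cells and control livers correlated with Pearson's r = 0.948 and Spearman's rho = 0.950, and r between single cell and liver libraries ran from 0.902 to 0.968. Within groups, r between libraries was 0.989 to 0.992 in control cells and 0.956 to 0.969 in control livers, where depth was lower.

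In cells, depth rose in each of the 33 bins, which cover positions 701 to 4000. limma called all 33 bins higher and 0 lower after Eif3m siRNA (largest adjusted p = 2.1e-08, Benjamini-Hochberg over the 134 bins tested), where 50.7% of all bins were called higher. Bins share reads with their neighbours and shift together with the other spacer bins of their library, so these adjusted p-values are smaller than 3 libraries per group warrant. They also depend on limma's trend. Without it all 33 bins were still called higher (52.2% of all bins), with a largest limma adjusted p of 0.0020. The segment's median log2 change was 1.50, against 0.34 over all bins. The rise was shared with the other spacers. In ITS1 9 of 9 bins were called higher (median log2 change 1.43), in ITS2 10 of 10 (1.38). In the 3′ETS it was 5 of 5 (1.48) and in the leader 5 of 6 (1.75). In 18S 0 of 17 bins were called higher and 7 lower, and in 28S 0 of 46 and 15, where 17.2% of all bins were called lower. Within the segment, changes ranged from 1.44 ± 0.18 (SE) in bin 701-800 to 1.60 ± 0.25 in bin 1701-1800. The SD among the 33 changes was 0.04. The median SE of a bin, 0.21, includes the shift in share that all bins of a library have in common, and was 0.053 with libraries scaled to the segment's own depth. In bins of 50 nt, which take in the first 50 nt of the segment, the changes ran from 1.24 to 1.62. After bin 1701-1800 came bins 1601-1700 (1.57 ± 0.24, SE) and 1301-1400 (1.56 ± 0.20), and the smallest changes after bin 701-800 were those of 2401-2500 (1.44 ± 0.21) and 2801-2900 (1.45 ± 0.24). In each of the 33 bins all Eif3m siRNA libraries lay above all control libraries, the gap between the nearest libraries being 1.82-fold to 2.39-fold. Overlap was not counted for bins outside the segment, so this count cannot set the segment apart from them.

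Depth rose in each of the 33 bins in liver too. All 33 were called higher and 0 lower (largest limma adjusted p = 0.049), where 52.7% of all bins were called higher. Without the filter on low bins, 32 were called higher (52.2% of all bins). With 1 library left out the count ran from 31 to 33. It was 31 without control liver replicate 3 (47.7% of all bins) or Eif3m siRNA liver replicate 1 (46.5%). Outside the segment, 8 of 9 bins of ITS1 were called higher (median log2 change 0.84), 8 of 10 of ITS2 (0.45) and 0 of 2 of the 3′ETS (0.38). In 18S 17 of 17 were called higher (0.18). In 28S 0 of 46 were called higher and 24 lower (-0.08), where 19.1% of all bins were called lower. The segment's median log2 change was 0.92, against 0.18 over all bins, with an SD among its bins of 0.13 and a median SE of 0.21, or 0.116 with libraries scaled to the segment's own depth. Whether the spread among bins differs between liver and cells was not tested. The largest changes were those of bin 3201-3300 (1.17 ± 0.24, SE), bin 701-800 (1.14 ± 0.20) and bin 1701-1800 (1.11 ± 0.24). Bin 3201-3300 held 0.0708, 0.0752 and 0.0522 ppm in control liver replicates 1 to 3 and 0.158, 0.164 and 0.128 ppm in the Eif3m siRNA livers. The smallest were 0.60 ± 0.28 (SE) in the shallow bin 2601-2700, 0.66 ± 0.19 in bin 2201-2300 and 0.68 ± 0.23 in bin 1501-1600. Bin 2201-2300 is a hill of the profile, and its libraries read 0.254, 0.275 and 0.197 ppm in controls and 0.435, 0.370 and 0.339 ppm after knockdown. All 33 bins were again free of overlap between groups, with nearest libraries 1.09-fold to 1.71-fold apart. Here too, overlap was not counted for bins outside the segment.

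The size of these changes depends on the scaling. With libraries scaled to their mature rRNA depth, the median over the segment was 1.58 in cells and 0.92 in liver. Median-of-ratios scaling sets the median of all bins near 0, so it takes out part of a rise that many bins share. With it the median of all bins moved from 0.34 to 0.00 in cells and from 0.18 to 0.01 in liver. The median over the segment moved from 1.50 to 1.16 and from 0.92 to 0.75. In that scaling 33 of 33 bins were called higher in cells, where 48.5% of all bins were called higher and 45.5% lower, and 32 of 33 in liver, where 32.8% were called higher and 38.2% lower.

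**Figure D2:**
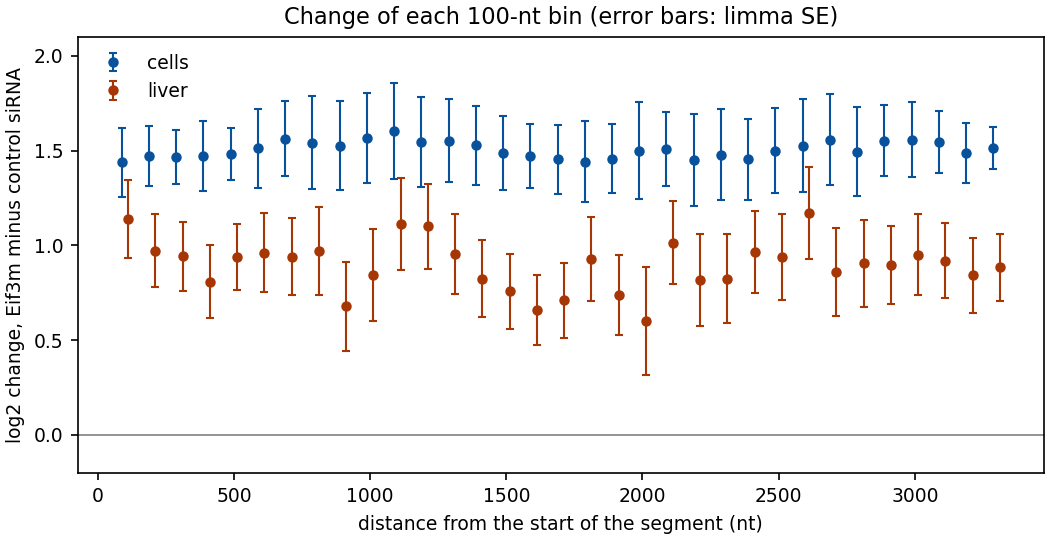
log2 change of each 100-nt bin (Eif3m minus control siRNA, points) with limma's SE (bars), against distance from the start of the segment, in cells and in liver. Cell values lie in a narrow band from 1.44 to 1.60 and liver values between 0.60 and 1.17, all above the line at 0.

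To ask whether any stretch moved apart from the rest, libraries were also scaled to their depth over the segment itself, a choice made after the profiles were seen. In cells 1 of 33 bins was then called higher, bin 1701-1800 at 0.11 ± 0.04 (SE, log2; limma adjusted p = 0.046), and 0 were called lower, with 1 bin at an unadjusted limma p under 0.05. Over the whole reference 2.99% of bins were called higher and 53.7% lower in that fit. In liver 1 bin was called higher, bin 701-800 at 0.25 ± 0.11 (SE; limma adjusted p = 0.035), and 1 lower, bin 2201-2300 at -0.23 ± 0.10 (SE; limma adjusted p = 0.036), where 0.763% and 67.9% of all bins were called higher and lower. Over both systems 3 bins were called higher and 1 lower, where 2.24% and 64.9% of all bins were called: bins 1701-1800 (0.18 ± 0.07, SE), 3201-3300 (0.16 ± 0.06) and 1801-1900 (0.13 ± 0.05) stood above the segment's own change, and bin 2201-2300 (-0.13 ± 0.06) below it. The adjustment ran over all bins of the reference. The many bins outside the segment called lower in this scaling ease the threshold for the segment's own bins. Unadjusted limma p was under 0.05 in 3 of the 33 bins in liver and in 4 over both systems. These calls therefore do not single out a stretch. Bin 1801-1900 lies outside the rule for named bins and was chosen after its value was seen. Across the 33 bins, changes in cells and in liver correlated weakly, with r = 0.263 and rho = 0.241, given as a description.

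Coarser measures of shape passed no test in either system. Depth over positions 651 to 2328 relative to positions 2329 to 4005 was 1.06 ± 0.024 in control cells and 1.06 ± 0.015 in Eif3m siRNA cells, and 1.27 ± 0.13 and 1.27 ± 0.056 in the livers (SD, n = 3 each). Log2 differences were -0.01 ± 0.02 in cells (SE; exact permutation p = 0.6) and 0.01 ± 0.09 in liver (exact permutation p = 0.9). Over 3 stretches of like length (651 to 1768, 1769 to 2886 and 2887 to 4005), log2 differences in share were 1.48 ± 0.20, 1.49 ± 0.22 and 1.52 ± 0.20 in cells and 0.94 ± 0.20, 0.83 ± 0.17 and 0.90 ± 0.14 in liver (SE; exact permutation p = 0.1 each). The coefficient of variation of depth among bins was 0.496 ± 0.020 and 0.488 ± 0.0067 in control and Eif3m siRNA cells and 0.449 ± 0.020 and 0.433 ± 0.025 in the livers (SD, n = 3 each; exact permutation p = 0.6 in each system). The missed threshold does not show that the shapes are equal, since 3 libraries per group give no exact p below 0.1.

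Differences at the 5′ end, next to the cleavage site, were of opposite sign in cells and liver. The exact test within a system cannot go below p = 0.1, so neither could pass it. The first 100 nt of the segment held 1.07, 1.07 and 1.02 times the mean depth of the rest in control cell replicates 1 to 3, and 0.976, 0.968 and 0.864 times in the Eif3m siRNA cells, without overlap. Their log2 difference was -0.17 ± 0.06 (SE; exact permutation p = 0.1; limma adjusted p = 0.058). Control livers had a ratio of 0.916 ± 0.090 and Eif3m siRNA livers one of 0.960 ± 0.027 (SD, n = 3 each), with overlapping libraries and a difference of 0.07 ± 0.08 (SE; exact permutation p = 0.4). Liver minus cells, the difference was 0.25 ± 0.10 (SE; limma adjusted p = 0.084). Within the first 50 nt of the segment the log2 difference was 1.25 ± 0.20 in cells and 0.82 ± 0.19 in liver (SE), and within the next 50 nt 1.39 ± 0.21 and 1.09 ± 0.27.

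The height of the step at the cleavage site itself also differed between groups. In cells it was 2.60, 2.21 and 2.22 (log2) in control replicates 1 to 3 and 1.83, 1.77 and 1.74 after Eif3m siRNA, so that all knockdown libraries had a lower step. Control livers had steps between 1.26 and 2.16 and Eif3m siRNA livers 2.35, 2.48 and 2.38, so that there all knockdown libraries had a higher step. Liver depth in the 20 nt before the step was 10.95 to 23.0 reads per position, and these heights carry that counting error. They are given as a description, with no test.

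At the 3′ end, the step from the segment into 18S was lower after knockdown in both systems. Its height was 1.88 ± 0.24 in control and 0.94 ± 0.11 in Eif3m siRNA cells, and 6.02 ± 0.16 and 5.36 ± 0.32 in the livers (SD, n = 3 each, log2), with no overlap between groups and no test. The step sets depth at the end of the segment against 18S depth, so it is not independent of the higher ratio to 18S given above. Its window inside the segment includes the last 2 positions. The last 100 nt before 18S were 2.62 ± 0.20 times as deep as the rest in control cells and 2.64 ± 0.098 times in Eif3m siRNA cells, or 0.02 ± 0.07 apart on the log2 scale (SE; exact permutation p = 0.9). In the livers the ratio was 2.30 ± 0.30 and 2.15 ± 0.14, a difference of -0.09 ± 0.12 (SE; exact permutation p = 0.6). The last 2 positions, which hold 18S depth in liver, differed by 0.30 ± 0.05 there and by 1.33 ± 0.14 in cells (SE, log2; exact permutation p = 0.1 each).

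Compared with the other spacers, the segment rose more than ITS2, the spacer between 5.8S and 28S, over both systems together. Segment depth was 0.708, 0.736 and 0.764 of ITS2 depth in control cell replicates 1 to 3 and 0.789, 0.800 and 0.811 in Eif3m siRNA cells. Control liver replicates 1 to 3 had 0.377, 0.375 and 0.360 of ITS2 depth, and Eif3m siRNA liver replicates 1 to 3 had 0.520, 0.514 and 0.484. No library overlapped between the groups of a system. Log2 differences were 0.12 ± 0.03 in cells and 0.45 ± 0.04 in liver (unpooled SE, exact permutation p = 0.1 each). The limma adjusted p was 0.058 and 0.002, with limma's SE at 0.04 and 0.08. Over both systems the difference was 0.28 ± 0.03 (SE; exact permutation p = 0.005, the smallest that 400 assignments allow; adjusted p = 0.0225 over the 9 segment values).

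Against ITS1, on the other side of 18S, the segment did not stand apart by the test. The ratio was 1.31 ± 0.019 and 1.36 ± 0.029 in control and Eif3m siRNA cells and 0.838 ± 0.070 and 0.948 ± 0.073 in the livers (SD, n = 3 each), with overlap in both systems. The difference over both systems was 0.11 ± 0.05 (SE; exact permutation p = 0.05, adjusted p = 0.11), and with median in place of mean depths it passed at 0.16 (exact permutation adjusted p = 0.015). Relative to the 3′ETS, segment depth was 16.1 ± 0.92 and 16.1 ± 0.52 times as high in the cells and 9.47 ± 1.80 and 11.7 ± 0.17 times in the livers (SD, n = 3 each). That ratio did not pass over both systems (0.16 ± 0.09, SE; exact permutation adjusted p = 0.14), but did so without control cell replicate 2 (0.19, adjusted p = 0.045) and with a pseudocount of 10 reads (0.41, adjusted p = 0.03).

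The upstream leader, the other part of the 5′ETS, did not follow the segment in liver. limma called 0 of its 6 bins higher there and 0 lower, with a median log2 change of 0.00, and 5 of 6 higher in cells, with a median of 1.75. Segment over leader depth was 1.20, 1.38 and 0.877 in control liver replicates 1 to 3 and 2.28, 1.91 and 1.90 in Eif3m siRNA livers, without overlap, against 6.11 ± 0.19 and 6.55 ± 0.65 in control and Eif3m siRNA cells (SD, n = 3 each). The log2 differences were 0.84 ± 0.21 in liver (SE; exact permutation p = 0.1; limma adjusted p = 0.0021) and 0.10 ± 0.09 in cells (SE; exact permutation p = 0.4). A narrow spike of depth in the leader, at positions 414 to 449, weighs on the ratios of both systems. With its positions left out, the difference in cells was -0.28, with all Eif3m siRNA cells below all control cells. The liver difference was then 0.94, but the liver ratios themselves were far higher. They ran from 3.19 to 4.89 under control siRNA and from 6.94 to 9.05 after knockdown. Cell ratios without the spike ran from 7.53 to 9.81 and from 6.34 to 7.40. All spacers together had 58.5% ± 0.66 of their depth in the segment in control cells and 60.0% ± 0.37 in Eif3m siRNA cells, and 41.3% ± 1.5 and 48.4% ± 1.2 in the livers (SD, n = 3 each), again without overlap within a system.

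**Figure D3:**
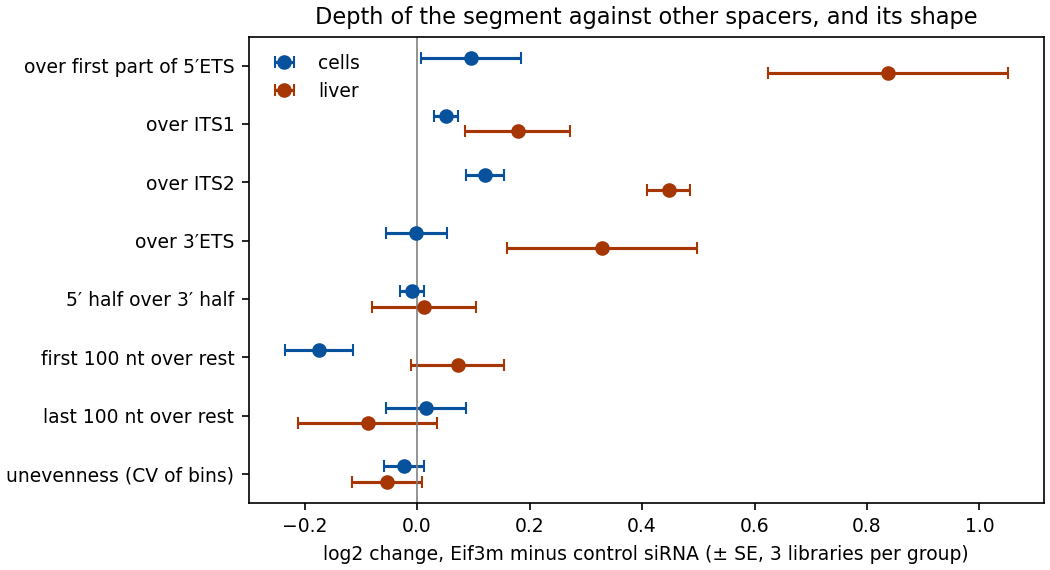
log2 change (Eif3m minus control siRNA, points, with SE as bars, n = 3 libraries per group) of the segment's depth over the other spacers and of its own shape, in cells and in liver. The liver values over the first part of the 5′ETS (0.84) and over ITS2 (0.45) lie farthest to the right, and the values for the first against the second part of the segment lie near 0 in both systems.

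Over both systems the share of the segment rose by 1.20 ± 0.13 (SE, log2), or 2.29-fold (exact stratified permutation p = 0.005, the smallest possible, adjusted p = 0.0225 over the 9 values). Of the 9 values, the share and the ratio to ITS2 passed. The bin fit over both systems called 33 of 33 bins higher and 0 lower, where 55.2% of all bins were called higher, with a median of 1.21 against 0.20 over all bins.

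Liver minus cells, the change of the share was -0.60 ± 0.27 (unpooled SE, log2), which did not pass limma (limma SE 0.23, adjusted p = 0.076). The planned permutation of siRNA labels takes no effect in either system as its null and gave p = 0.5 (exact). With effects of 1 sign in cells and liver it cannot single out a difference between them, and nothing is read from it. Of the 33 bins, limma called 12 lower in liver and 0 higher, or 36.4%, near the 29.9% of all bins called lower (12.7% were called higher). That count was 0 without control cell replicate 1, 1 without Eif3m siRNA replicates 1 or 3 of the cells or replicate 3 of the livers, 2 without control liver replicate 2, 3 without control liver replicate 1, and 4 without control cell replicate 3 or Eif3m siRNA liver replicate 2. It was 19 without control liver replicate 3, 21 without Eif3m siRNA liver replicate 1, 22 without control cell replicate 2 and 23 without Eif3m siRNA cell replicate 2.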

How the data were processed

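The authors deposited read depth, a coverage signal: whole numbers of reads over each position of 1 reference sequence, without scaling, per the file headers and values. The submitters' processing notes name BWA 0.7.12 and SAMtools 1.3; the name of the reference, mapping options and what was done with duplicates or multi-mapping reads were not given in the sources used here. Columns were matched to samples by the code in the title; 85 empty cells, 0 of them in the segment, were read as 0.

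Mature regions were placed from depth steps (20-nt windows, all 12 libraries). For 9 segment values (share of summed depth, ratios to 4 spacers, 4 shape measures), mean log2 values were compared by exact two-sided permutation tests with Benjamini-Hochberg adjustment: 20 assignments within a system, 400 over both. Bins of 100 nt with a mean depth of at least 10 were fitted as log2(scaled depth + 1) with limma 3.58.1 (trend) in R 4.3.3, threshold 0.05; a fold change on this scale understates shallow bins. Scripts were tested on simulated data. Bins were named by rule: the 3 deepest, 3 shallowest, 3 largest and 3 smallest changes per system, and both end bins. Members and lists were chosen with earlier results of these data known. Same-numbered replicates were not paired: correlations of their deviations ran from -0.82 to 0.36. Sequence of the precursor was not used here.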

Additional observations from a re-analysis of the deposited data

Results flagged for a closer look

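Changes that differed between liver and cells by limma stand out here, each given as liver minus cells on the log2 scale. The ratio of the segment to the upstream leader differed by 0.74 ± 0.20 (limma SE, adjusted p = 0.017), and the ratio to ITS2 by 0.33 ± 0.07 (limma SE, adjusted p = 0.0072). The permutation of siRNA labels does not test these differences, since its null is no effect in either system. Of the segment's 33 bins, 12 (36.4%) changed less in liver than in cells by limma, near the 29.9% of all bins, a count that ran from 0 to 23 when 1 library was left out. Cells and liver differ in RNA fraction, dose and time, and these cannot be told apart.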

How the results depend on the processing

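Of 664 values recomputed under alternatives, 597 kept their direction and their side of the threshold (counts within 1.5 times), 32 changed sign, 22 became stronger and 13 weaker. For liver minus cells, the threshold is that of the permutation of siRNA labels, which does not test that difference; passing or not is not read there. The share of the segment ran from 1.48 to 1.59 (log2) in cells and from 0.72 to 1.01 in liver over the alternatives that leave out no library. Over both systems it passed the exact test in all alternatives but the replicate block. Same-numbered samples share only a number; with the replicate block (sign flips, smallest exact p 0.03125), the share over both systems, 1.20, and the ratio to ITS2, 0.28, no longer passed (adjusted p = 0.094 each), and the bins called lower in liver than in cells went from 36.4% (29.9% of all bins) to 0% (17.2%), with 7 at an unadjusted limma p under 0.05. That share of bins was 54.5% with scaling to mature depth (42.5% of all bins), 18.2% with median-of-ratios scaling (20.1%), 90.9% with a pseudocount of 10 (47.0%), 18.2% without a trend (20.9%), and 0% to 69.7% with 1 library left out.

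With median depths, the ratio to the leader was -0.36 in cells and 1.40 liver minus cells, that to ITS1 0.16 over both systems, that of the first to the second part of the segment 0.037 in cells, -0.0040 in liver and -0.041 between them, and that of the last 100 nt 0.0080 over both systems. With a pseudocount of 1 read the ratio to the 3′ETS in cells was 0.016. With 10 reads it was 0.15 in cells and 0.41 over both systems, the ratio to the leader over both systems was 0.47 (now passing), and unevenness was 0.060 in liver, 0.024 over both systems and 0.072 liver minus cells. Leader ratios were -0.29 in cells and 1.23 liver minus cells without the 100-nt bin that holds the spike, and -0.28 and 1.22 without the spike alone, a choice made after seeing the data. With ends trimmed, also chosen then, the ratio of the first to the second part was -0.0026 over both systems. limma on the segment values passed the share in cells (1.50) and liver (0.89), the ratios to the leader in liver (0.84), over both systems (0.47) and liver minus cells (0.74), and those to ITS2 in liver (0.45) and liver minus cells (0.33). Over both systems it also passed the share (1.20) and the ratio to ITS2 (0.28), as the exact test did.

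With 1 library left out in turn, the ratio to the leader over both systems ran from 0.37 to 0.54, passing without Eif3m siRNA cell replicate 2 (0.51). The ratio to the 3′ETS ran from -0.031 to 0.045 in cells and from 0.080 to 0.22 over both systems. That of the first to the second part ran from -0.020 to 0.0098 in cells, -0.057 to 0.089 in liver, -0.033 to 0.040 over both systems and -0.049 to 0.098 liver minus cells. That of the first 100 nt, liver minus cells, ran from 0.19 to 0.33. That of the last 100 nt ran from -0.048 to 0.049 in cells and -0.090 to 0.00072 over both systems, and unevenness from -0.053 to 0.0063 in cells and -0.060 to 0.019 liver minus cells. The cause of these moves was not tested. Liver depth limits the shallow bins and the edges of the segment.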
